A study of Arabidopsis thaliana with 12 samples.

Results

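The response of wild-type Arabidopsis thaliana leaves to latrunculin B was read from the 6 wild-type (WT) libraries of 12 in all, namely the 3 titled for latrunculin B and the 3 titled for DMSO. Reads were summed for each locus, and 18149 genes of 27313 loci had enough reads to be tested. Both groups were Col-0 plants grown for 4 weeks at 22 °C under a 10 h day. The drug was infiltrated into fully expanded rosette leaves at 1 µM, the control leaves received 0.01% DMSO, and all leaves were frozen 24 h later. The other 6 libraries came from sid2, a mutant of the salicylic acid biosynthesis gene ICS1, under the same 2 treatments, and are used here only to say where the WT response differed from theirs. Whether a group's 3 libraries were made from different plants is not stated in the labels. The p-values here reflect only how far these libraries scatter, which may be technical.

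Latrunculin B is a sponge toxin that binds actin monomers and keeps them from joining filaments, so that cellular F-actin is lost. In leaf cells the actin filaments, driven past by myosins, carry organelles and secretory vesicles and move the cytoplasm, while cortical microtubules guide the cellulose synthase complexes that lay down the wall. Actin filaments also rearrange when leaf cells perceive microbes, and drugs that break them are used to ask what the cell does without them.

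Calls were many and, with TMM scaling, divided about evenly by direction. With edgeR's quasi-likelihood test at an adjusted p under 0.05, 4012 genes were higher with latrunculin B (22.1% of those tested) and 4115 were lower (22.7%), together 44.8%. Of these, 1954 rose and 2148 fell by at least 1 on the log2 scale, and at 3 or more the rises (392) outnumbered the falls (184). Among the most abundant genes, by quintile of mean level, 25% rose and 38.8% fell, against 13.6% and 10.8% in the lowest quintile. All 3 latrunculin B libraries lay on the other side of the 3 DMSO libraries in 28.6% of tested genes upward and 27.9% downward. The first principal component of the 6 libraries held 72.8% of their variance and set the treatments apart.

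Library totals ran from 16127876 to 22449387 reads with DMSO and from 15180467 to 17407205 with latrunculin B. The 10 most abundant genes took 15.2% to 17.4% of reads with DMSO and 8.66% to 10.9% with latrunculin B. The balance of calls therefore depends on the scaling: TMM factors were 0.918 to 0.964 with DMSO and 1.17 to 1.26 with latrunculin B, and under library size alone 6818 genes were higher and 2521 lower, with the median of all tested genes moved from -0.01 to 0.33 on the log2 scale. Levels below are CPM, the usual per-library read rate, after TMM scaling, and small changes are to be read against that shift. Latrunculin B replicate 3 was the library farthest from the DMSO mean for 56.1% of the genes that rose and 57.9% of those that fell.

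**Figure D1:**
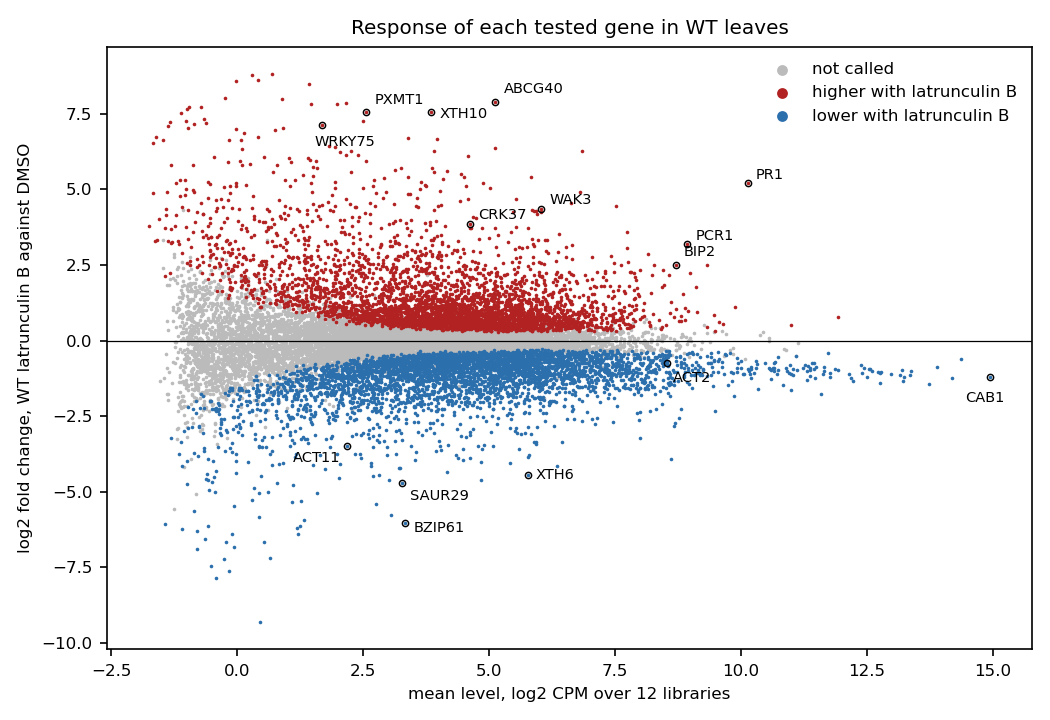
Each point is 1 of the 18149 tested genes, with its mean level over 12 libraries (log2 CPM) on the horizontal axis and its log2 fold change in WT, latrunculin B against DMSO, on the vertical axis. The 4012 genes called higher are red, the 4115 called lower are blue, and circled genes are described in the text. At the abundant end most called genes lie below 0, down to CAB1 at the far right, and the largest rises belong to genes of low and middle level.

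The actin genes themselves, which encode the target of the drug, were tested first. ACT2 (AT3G18780, chromosome 3, 6474710 to 6477204), a main vegetative actin, was at 466, 443 and 480 CPM with DMSO and at 256, 299 and 274 CPM with latrunculin B. The groups did not overlap, and ACT2 fell by 0.74 ± 0.12 (SE) on the log2 scale (adjusted p = 0.00019, edgeR). ACT8, its near-identical partner, was at 96.9, 92.6 and 104 CPM with DMSO and 71.7, 80.3 and 81.0 CPM with latrunculin B, a difference of -0.33 that missed the threshold (adjusted p = 0.054). It was 0.01 under library size alone, and passed as lower with upper-quartile scaling (-0.42, adjusted p = 0.0195), in the fit of the 6 WT libraries (0.0312), with effective-length offsets (0.042), and without sid2 DMSO replicate 3 (0.0447) or sid2 latrunculin B replicate 3 (0.0386). ACT7, the vegetative actin most tied to hormone response, was at 223, 285 and 250 CPM and at 235, 275 and 215 CPM, so that its groups overlapped. Its difference was -0.06 (adjusted p = 0.73), and 0.27 under library size alone.

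Of the rarer actins, 2 fell and 1 missed the threshold. ACT11, in other tissues a reproductive actin, stood at 10.1, 8.72 and 5.04 CPM with DMSO and at 1.09, 1.07 and 0 CPM with latrunculin B, a change of -3.48 ± 0.61 (-2.86 without latrunculin B replicate 3). ACT3 went from 10.4, 12.9 and 8.65 CPM to 3.87, 5.37 and 2.7 CPM, a change of -1.42 ± 0.39 (adjusted p = 0.008). ACT1 was not called (-0.51, adjusted p = 0.20), ACT4 had no reads in WT, and ACT9 and ACT12 were too low to be tested. On the deposited TPM scale, which allows for length, ACT2 made up 55.1% of the actin total with DMSO and 45.4% with latrunculin B, while ACT7 made up 30.2% and 40.2% and ACT8 11.2% and 12.3%. Reads of near-identical actin copies were divided by the authors' estimation, so the split between copies is uncertain.

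Proteins that bind actin filaments had members called in both directions, in numbers that turned on the scaling. Of 35 tested members of that list, 10 were higher (28.6%) and 8 lower (22.9%), near the 22.1% and 22.7% of all tested genes. The median was 0.08 beside -0.01 for all genes. Counts were 10 and 9 with upper-quartile scaling, and 19 and 4 with a median of 0.43 under library size alone. AFH1, a membrane-anchored formin that nucleates filaments, went from 84.5, 80.7 and 49.0 CPM to 9.78, 12.7 and 13.4 CPM, a fall of 2.58 ± 0.28 on the log2 scale. CPA, a subunit of the capping protein that blocks filament ends, went from 21.3, 20.9 and 21.9 CPM to 12.8, 10.9 and 10.1 CPM. Both were lower in every latrunculin B library than in any DMSO library. Their counterparts among the actin depolymerizing factors, which sever and disassemble filaments, were higher: ADF6 rose by 1.52 ± 0.20 and ADF4 by 0.78 ± 0.13. For all 4 of these genes the WT response differed from that in sid2 (adjusted p of the difference 0.00081 for AFH1, 0.0095 for CPA, 0.019 for ADF6 and 0.0024 for ADF4).

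Myosins, the motors that walk on those filaments, also split. MYA2, a myosin XI of organelle movement, was at 61.0, 67.0 and 63.3 CPM with DMSO and 124, 130 and 134 CPM with latrunculin B. Its paralog MYA1 ran the other way, from 24.7, 24.5 and 24.6 CPM to 13.7, 13.5 and 12.7 CPM. The libraries of each group lay close together, and the changes were 1.02 ± 0.12 for MYA2 and -0.89 ± 0.11 for MYA1. XIB fell by 1.91 ± 0.31 and the class VIII myosin VIIIB by 1.17 ± 0.42, and VIIIA rose by 0.65 ± 0.16. Among the 7 tested myosins 2 were thus higher (28.6%) and 3 lower (42.9%), against 22.1% and 22.7% of all tested genes. Their median of -0.19 became 0.15 under library size alone.

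On the microtubule side most members were lower. All but 2 of 15 tubulins were lower and none was higher, with a median of -1.24, and 9 of them stayed lower under library size alone. Of 22 proteins that bind microtubules, 13 were lower, 8 were not called and 1, SPR1, was higher (7 lower under library size alone). CSI1, which ties cellulose synthase complexes to microtubules, went from 99.4, 101 and 84.0 CPM to 32.6, 33.0 and 30.1 CPM. MAP65-1 and ATMAP65-6, which bundle microtubules, fell by 1.69 ± 0.17 and 1.52 ± 0.13. Responses of 10 tubulins and 8 of the binding proteins were lower in WT than in sid2, where the background share of such genes was 13.4%.

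**Figure D2:**
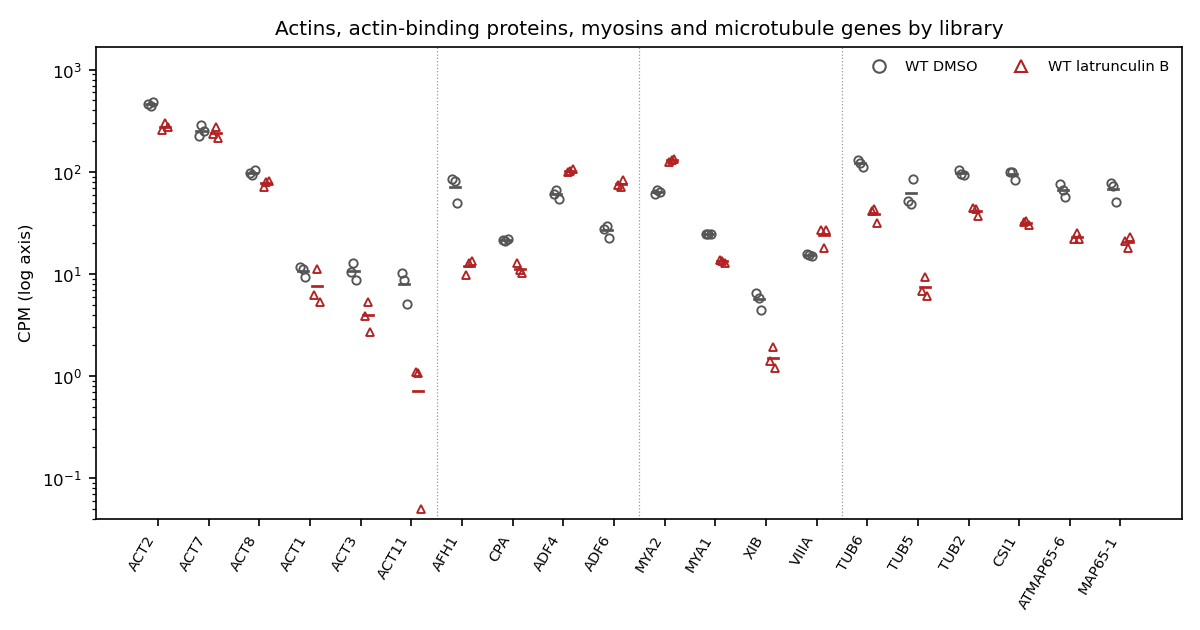
Level in CPM (log axis) of actins, actin-binding proteins, myosins and microtubule genes in each WT library. Grey circles are the 3 DMSO libraries, red triangles the 3 latrunculin B libraries, bars the group means, and dotted lines separate the gene classes. The library in which ACT11 had 0 CPM is drawn at the bottom of the axis. ACT7 and ACT1 overlap between treatments, MYA2 and MYA1 part in opposite directions, and tubulin and microtubule-binding genes lie lower with the drug.

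The largest rises were genes nearly silent in control leaves. ABCG40 (AT1G15520, chromosome 1, 5331858 to 5338326), a plasma membrane pump of the pleiotropic drug resistance family, was at 0.676, 0.532 and 0.462 CPM with DMSO and at 31.2, 96.3 and 269 CPM with latrunculin B. It rose by 7.90 ± 0.85 on the log2 scale, or by 6.85 without latrunculin B replicate 3, the highest library. AT3G13610, annotated with the synonym F6'H1, encodes the hydroxylase that makes the coumarin scopoletin. Its levels were 0.270, 0.0532 and 0.0925 CPM with DMSO and 8.78, 20.3 and 32.5 CPM with latrunculin B, a rise of 7.25 ± 0.72. Without DMSO replicate 1 only 3 DMSO reads were left, and the ratio of reads was 281.9 (95% interval 96.2 to 1369, counting error only). In sid2 it had no reads with DMSO and 60 with latrunculin B, at least 15.4-fold higher against a floor of 3 reads over the empty group (adjusted p = 0.023).

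WRKY75, a transcription factor tied to phosphate shortage and leaf senescence, was at 0, 0 and 0.185 CPM with DMSO and at 4.96, 8.48 and 19.2 CPM with latrunculin B. No library overlapped, and the fitted change of 7.13 was 6.44 without latrunculin B replicate 3. All 4 DMSO reads were in DMSO replicate 3, and without it WRKY75 was at least 122-fold higher against the same floor. FMO1, which makes the systemic immune signal N-hydroxypipecolic acid, ran from 0.743, 0.0532 and 0 CPM to 11.9, 16.9 and 42.9 CPM. Its fitted change of 6.70 was 5.95 without latrunculin B replicate 3. Without DMSO replicate 1 a single DMSO read was left, and the ratio of reads had an interval of 179.3 to 39550. AT3G10320 had 3 reads in all DMSO libraries and 842 in the latrunculin B libraries, a ratio of 259.6 with a 95% interval of 88.51 to 1261 that covers counting error only (513.5, with an interval of 91.9 to 20310, without DMSO replicate 2). Besides these, the 12 largest rises by the rule used (called, no overlap, at least 10 CPM in the higher group) held XTH10, PXMT1, YLS9, AT2G44240, AT5G44990, AT5G19880 and AT1G26410, with changes from 6.29 (AT1G26410) to 7.57 (XTH10). Some of these rested on 1 library: without latrunculin B replicate 3, XTH10 was at 6.91, AT5G19880 at 5.75 and AT5G44990 at 5.45. Leaving out DMSO replicate 3 left 3 DMSO reads of AT1G26410 and 2 of AT5G19880, with ratios of reads of 150.6 (51.4 to 731.8) and 222 (61.2 to 1836). Leaving out DMSO replicate 2 left 1 of AT5G44990, with an interval of 78.7 to 17390.

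Several genes went from no read at all with DMSO to a clear signal in all latrunculin B libraries. Among tested genes, 21 had 0 reads in every DMSO library, and 17 of these had at least 10 reads in each latrunculin B library. Such genes were tested only where other groups had enough reads, so the low-count filter partly set this count. GLIP1, a secreted lipase of defence against necrotrophic fungi, had 44, 50 and 69 reads and was at least 50.1-fold higher, taking 3 reads over the DMSO group as the floor. BON3, of the copine family that restrains immune receptors, had 41, 36 and 113 reads (at least 56.7-fold), and AHP4, a phosphotransfer protein of cytokinin signalling, 103, 33 and 52 reads (at least 57.4-fold). In the other direction XTH33, an enzyme that cuts and rejoins xyloglucan, had 84, 46 and 111 reads with DMSO and none with latrunculin B, at least 88.0-fold lower. With 1 library left out these bounds ran from 30.5 to 55.0 for GLIP1, 34.5 to 66.3 for BON3, 34.9 to 68.9 for AHP4 and 55.7 to 107.6 for XTH33. The BON3 bound was 37.5 without latrunculin B replicate 3 and the AHP4 bound 39.0 without latrunculin B replicate 1. These 4 were chosen after their values were seen.

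In absolute terms the rise was led by PR1, a marker of salicylic acid signalling, from 153, 120 and 79.4 CPM to 4145, 3688 and 5267 CPM. PR1 also rose in sid2, by 4.69 (adjusted p = 0.0035, edgeR), but at far lower levels, from a mean of 0.160 CPM to 4.38 CPM. Its responses in WT and sid2 were not called different (0.52, adjusted p = 0.81, edgeR). PCR1, of a family of small membrane proteins linked to cadmium resistance, went from 179, 187 and 200 CPM to 1499, 1611 and 2035 CPM, a rise of 3.18 ± 0.22, and differed from sid2 by 2.86 (adjusted p = 9.2e-05). AT2G25510 was among the most abundant genes and went from 4612, 3744 and 3819 CPM to 6974, 6864 and 6988 CPM. All 8 of the largest losses in CPM were nuclear genes of photosynthesis: CAB1, CAB2, CAB3, LHB1B2, LHCB5, RBCS1A, RBCS3B and RCA. CAB1, a light-harvesting protein, went from 44416, 31538 and 34472 CPM to 18786, 16158 and 12770 CPM, with the copies CAB1, CAB2 and CAB3 hard to tell apart by reads. LHB1B2 lost its call under library size alone (-0.27) and in both limma fits (adjusted p 0.0959 and 0.0856). In RNA of whole leaves, fewer cells of a type and less RNA per cell cannot be told apart, here or in the gene groups that follow.

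The largest falls took in transcription factors, wall enzymes and auxin-induced genes. BZIP61 (AT3G58120, chromosome 3, 21520974 to 21523518) and BZIP34, paired basic leucine zipper factors, were at 41.7, 15.2 and 22.6 CPM and at 24.8, 11.3 and 14.2 CPM with DMSO. With latrunculin B they were at 0, 0 and 1.1 CPM and at 0, 0.0565 and 0.777 CPM. The fitted changes were -6.05 for BZIP61 and -5.79 for BZIP34. Latrunculin B replicate 3 held all 24 latrunculin B reads of BZIP61 and all but 1 of the 18 of BZIP34. Without it BZIP61 was at least 334.1-fold lower, and the ratio of reads for BZIP34 had an interval of 108.8 to 24030. SAUR29, an auxin-induced gene of cell expansion, fell from 19.8, 14.6 and 13.4 CPM to 0.496, 0.283 and 0.959 CPM. XTH6, a xyloglucan enzyme of the wall, fell from 112, 117 and 72.3 CPM to 5.11, 4.35 and 4.29 CPM, a change of -4.45 ± 0.38. Both of these responses differed from those in sid2 (SAUR29 by -4.43, adjusted p = 0.0002, and XTH6 by -4.47, adjusted p = 0.00011). PELPK1 varied most, from 1.29 to 31.4 CPM among DMSO libraries, and its call was lost with robust hyperparameters (adjusted p = 0.0644), in both limma fits (0.0514 and 0.0749), without DMSO replicate 2 (-3.82), without latrunculin B replicate 1 (-4.82) and without latrunculin B replicate 3 (-4.94).

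The endoplasmic reticulum (ER) folds proteins bound for the cell surface and the vacuole. When unfolded proteins gather there, membrane-held leucine zipper factors are cut free or made by an unusual splicing event, and they switch on chaperones through an element in their promoters. Of 9 tested sensors and factors 7 were higher. BZIP60, the factor made by that splicing, went from 36.8, 35.4 and 46.9 CPM to 156, 164 and 169 CPM, a rise of 2.03 ± 0.23. BZIP28 and BZIP17, the membrane-held factors, rose by 1.1 ± 0.19 and 1.11 ± 0.16, and NAC062, a membrane-held NAC factor, by 1.79 ± 0.18. BAG7, an ER-located cochaperone, fell by 1.01 ± 0.25, and 1 was not called.

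All 11 tested cochaperones and glycoprotein folding factors were higher, with a median of 1.28, and 10 of them responded more in WT than in sid2 (background 10.7%). CNX1, a calnexin that holds glycoproteins until they fold, went from 144, 186 and 150 CPM to 674, 733 and 758 CPM. ATERDJ3B, a partner of the BiP chaperones, went from 76.0, 76.7 and 87.7 CPM to 341, 309 and 379 CPM, a rise of 2.1 ± 0.13 against 0.10 in sid2. BIP3, the most inducible BiP, was named after its values were seen. It was at 15.6, 15.6 and 19.1 CPM with DMSO and 134, 171 and 214 CPM with latrunculin B in WT, a rise of 3.36 ± 0.21. In sid2 its change was -0.67 (adjusted p = 0.075), and the responses differed by 4.03 (adjusted p = 2.6e-05).

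The entry gate of the ER rose with them. Of 24 tested subunits of the translocon, the signal peptidase and the oligosaccharyltransferase, 20 were higher and none was lower, with a median of 0.86. AT3G60540, a beta subunit of the Sec61 channel, went from 5.88, 3.88 and 4.02 CPM to 35.4, 34.8 and 44.5 CPM, and AT4G24920 and AT5G50460, both Sec61 gamma subunits, rose by 1.99 ± 0.14 and 2.0 ± 0.21. Responses of 14 of the 24 were greater in WT than in sid2. The coats of vesicles that run between ER and Golgi moved less: 10 of 21 were higher and none was lower, with a median of 0.34, led by the coatomer subunit AT3G15980 at 1.40 ± 0.15.

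The promoters of AT3G60540, P58IPK and BIP3 are shown because they hold 2 copies each of the ER stress element, CCAAT and CACG with 10 letters between, searched on both strands in the 250 bases before each annotated start. It was found in 0.91% of the promoters of all 18001 tested nuclear genes that could be read. The share was 1.48% for genes that rose, 0.77% for those that rose by at least 3 on the log2 scale and 0.83% for genes that fell. It was in 8.57% of the 35 promoters of the cochaperone and translocon lists (3 genes: AT3G60540, P58IPK and EBS1). EBS1, which holds 1 copy on the other strand, is not shown, and BIP3 was searched outside those lists after its values were seen. The sequences are from RefSeq, build TAIR10.1, at chr3:22375917-22376166 (minus strand) for AT3G60540, chr5:749851-750100 (plus strand) for P58IPK and chr1:2931851-2932100 (minus strand) for BIP3. Capitals mark the element, in these 3 read on the opposite strand, so that CGTG comes before ATTGG.
AT3G60540: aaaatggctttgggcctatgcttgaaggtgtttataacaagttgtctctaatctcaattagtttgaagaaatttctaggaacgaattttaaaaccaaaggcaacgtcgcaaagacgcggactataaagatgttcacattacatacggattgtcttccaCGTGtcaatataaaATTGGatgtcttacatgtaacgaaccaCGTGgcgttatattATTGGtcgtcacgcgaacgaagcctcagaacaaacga
P58IPK: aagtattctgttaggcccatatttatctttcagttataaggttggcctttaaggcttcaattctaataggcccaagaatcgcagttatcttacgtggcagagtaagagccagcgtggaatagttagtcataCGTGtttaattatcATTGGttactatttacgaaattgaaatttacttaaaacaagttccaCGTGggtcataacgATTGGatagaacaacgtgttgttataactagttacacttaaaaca
BIP3: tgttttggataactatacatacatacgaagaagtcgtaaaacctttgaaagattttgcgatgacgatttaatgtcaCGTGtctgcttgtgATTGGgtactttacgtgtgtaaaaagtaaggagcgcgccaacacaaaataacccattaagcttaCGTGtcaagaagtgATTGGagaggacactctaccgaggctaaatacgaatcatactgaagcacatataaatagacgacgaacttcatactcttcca
P58IPK, a cochaperone that prevents misfolding at the ER, went from 34, 28.6 and 28.7 CPM to 78.3, 88.5 and 92.2 CPM, so the rise of 1.51 ± 0.13 was less than that of BIP3 or AT3G60540 with the same number of copies. Another motif searched in the same window, the site II core GGGCC, was in 40% of the 35 promoters of the cochaperone and translocon lists and 19.9% of all promoters. A match is a description of the letters and shows no binding.

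At the cell surface, cysteine-rich receptor-like kinases (CRKs) are a plant family whose members are induced by microbes, oxidants and salicylic acid. Of 34 tested CRKs 21 were higher and 2 lower, with a median of 1.33. CRK37 went from 3.58, 5.26 and 4.11 CPM to 54.6, 57.8 and 78.4 CPM, a rise of 3.87 ± 0.24. CRK23 was at 5.41, 5.53 and 6.70 CPM with DMSO and 43.7, 47.0 and 43.8 CPM with latrunculin B. Groups of both genes lay far apart, and both responses exceeded those in sid2 (CRK37 by 3.16, adjusted p = 7.2e-05, and CRK23 by 2.63, adjusted p = 6.3e-05). CRK36 and CRK13 rose by 3.60 ± 0.27 and 3.33 ± 0.23. The members that fell were CRK21 and CRK42.

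Wall-associated kinases, which sense pectin fragments, were higher in 4 of 7 tested. WAK3 went from 11.5, 9.57 and 9.38 CPM to 153, 171 and 303 CPM, and WAK1, already abundant, from 622, 570 and 637 CPM to 1116, 1133 and 1232 CPM. Among calcium-permeable channels, the cyclic nucleotide-gated and glutamate receptor-like families, 17 of 28 were higher and 5 lower. GLR2.5 rose by 5.70 ± 0.35 and CNGC19, a channel of the wound and defence calcium wave, by 3.99 ± 0.43 from levels near 1 CPM. CNGC10 stood at 11.3, 11.3 and 11.2 CPM with DMSO and at 41.5, 55.3 and 58 CPM with latrunculin B. Of 28 calcium sensors and kinases 11 were higher and 2 lower, among them CPK29 (2.47 ± 0.27) and CML41 (2.23 ± 0.24), a calmodulin-like protein of plasmodesmata.

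The W-box core TTGAC, the letters that WRKY factors bind, was counted in the same window on both strands. It was in 45.1% of all 18001 promoters, 52.1% of those of genes that rose, 66.8% of those that rose by at least 3 on the log2 scale (388 promoters), and 39.8% of those of genes that fell. Of the 34 CRK promoters 73.5% held it and 20.6% held it at least 3 times, against 3.54% of all promoters. Other searched lists with more rises than falls varied. Below the share of all promoters were NAC factors (31.8% of 44) and the proteasome (37.0% of 27). Above it were the ER lists (48.6% of 35), glutathione transferases (60.5% of 38) and mitochondrial stress genes (66.7% of 12). Promoters of CRK11, which held the core 6 times, and of WRKY75, which held it once close to its start, are shown for the contrast between clustered and single matches. They lie at chr4:12143859-12144108 (minus strand) and chr5:4151202-4151451 (minus strand) (RefSeq, TAIR10.1), and capitals mark TTGAC or, for the other strand, GTCAA.
CRK11: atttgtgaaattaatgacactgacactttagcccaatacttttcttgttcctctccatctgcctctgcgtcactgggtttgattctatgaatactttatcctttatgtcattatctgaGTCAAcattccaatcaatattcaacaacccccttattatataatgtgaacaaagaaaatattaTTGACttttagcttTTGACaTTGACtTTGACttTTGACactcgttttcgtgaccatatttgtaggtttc
WRKY75: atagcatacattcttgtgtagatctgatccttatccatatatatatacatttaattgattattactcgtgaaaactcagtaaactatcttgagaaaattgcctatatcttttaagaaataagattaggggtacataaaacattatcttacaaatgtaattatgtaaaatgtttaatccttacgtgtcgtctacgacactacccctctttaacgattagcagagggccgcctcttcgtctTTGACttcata
CRK11, named for this count after its values were seen, went from 12.5, 12.8 and 20.1 CPM to 34.3, 48.3 and 49.4 CPM. Its rise was 1.54 ± 0.40. WRKY75, with 1 match, was among the 12 largest rises, so its larger rise was set by that choice and says nothing of match counts.

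**Figure D3:**
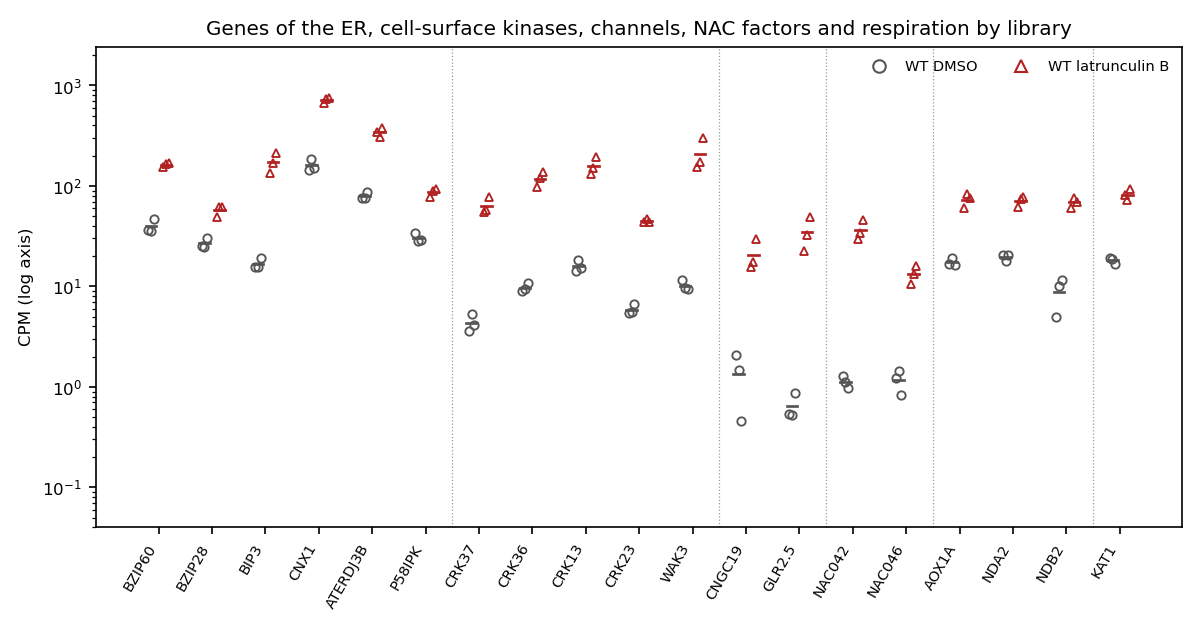
Level in CPM (log axis) of genes of the ER, cell-surface kinases, channels, NAC factors and respiration, with the guard cell channel KAT1 at the right, in each WT library. Grey circles are the 3 DMSO libraries, red triangles the 3 latrunculin B libraries, bars the group means, and dotted lines separate the classes. For every gene drawn, the 3 latrunculin B libraries lie above the 3 DMSO libraries.

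NAC factors, plant regulators of stress and senescence, moved in 1 direction: 25 of 44 tested were higher and none was lower, with a median of 0.99 (1 was lower with upper-quartile scaling). NAC042, which controls camalexin synthesis, went from 1.28, 1.12 and 0.971 CPM to 29.4, 34.2 and 45.8 CPM. NAC046, a promoter of chlorophyll loss, rose by 3.52 ± 0.32, and NAC053, which governs proteasome genes, by 2.11 ± 0.19. Responses of 17 NAC genes were greater in WT than in sid2. Of 34 ERF, CRF and DREB factors 10 were higher (29.4%, against 22.1% of all tested genes) and 3 lower (8.82%, against 22.7%). DREB19 led them at 5.32 ± 0.71, or 4.67 without DMSO replicate 3. Without DMSO replicate 2, 2 DMSO reads of DREB19 were left. DREB26 fell by 3.27 ± 0.68 (4.26 without latrunculin B replicate 3).

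Hormone pathways did not move alike. Of 25 jasmonate synthesis genes and JAZ repressors 9 were lower and 3 higher, among them the allene oxide cyclases AOC2 (from 402, 458 and 550 CPM to 216, 291 and 185 CPM) and AOC4. Under library size alone that count was 4 and 4. Of 16 jasmonate response genes 4 were higher and 4 lower (6 and 4 under library size alone). These shares, 25% each, were near the 22.1% and 22.7% of all tested genes. CORI3 fell by 1.49 ± 0.30, while PR4 rose by 0.85 ± 0.21, less than its 1.69 in sid2 (adjusted p of the difference 0.049). Among 20 ethylene genes 7 were higher and 3 lower. ACS6, a stress-induced enzyme of ethylene synthesis, rose by 1.19 ± 0.25, and EIL1, a master factor of the response, fell by 1.14 ± 0.17.

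Of 32 abscisic acid genes 13 were higher and 4 lower, with a median of 0.38. HAB1 and ABI1, phosphatases that hold the pathway off and are themselves induced by it, went from 20.9, 25.7 and 20.7 CPM to 71.9, 82.7 and 80.1 CPM and from 36, 49.2 and 50.6 CPM to 133, 124 and 141 CPM. Neither overlapped between treatments. Responses of 11 of the 32 exceeded those in sid2, HAB1 by 2.09 (adjusted p = 0.00037). Genes of the growth hormones were mostly lower. Of 39 auxin response genes 24 were lower and 1, SAUR36, was higher, with a median of -1.39. SHY2, an Aux/IAA repressor, went from 29.8, 36.1 and 34.2 CPM to 2.93, 3.84 and 4.39 CPM. Of 31 brassinosteroid and gibberellin genes 16 were lower and 3 higher: BES1, a main factor of the brassinosteroid response, fell by 1.58 ± 0.20, and BEE1 by 3.74 ± 0.54 (4.62 without latrunculin B replicate 3).

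Detoxification and specialised metabolism rose in part. Of 38 glutathione transferases 15 were higher and 4 lower. GSTU10 went from 1.96, 0.585 and 0.647 CPM to 19.8, 26.7 and 42.5 CPM, and GSTZ1, which serves tyrosine breakdown, rose by 1.48 ± 0.15. Of 45 UDP-glycosyltransferases, which attach sugars to small molecules, 16 were higher and 7 lower. UGT76B1, which conjugates the immune signal N-hydroxypipecolic acid, went from 6.49, 4.47 and 6.93 CPM to 73.7, 92.7 and 131 CPM. Of 58 ABC transporters 16 were higher (27.6%) and 13 lower (22.4%), near the 22.1% and 22.7% of all tested genes. Under library size alone the counts were 24 and 8. ABCC4 rose by 2.12 ± 0.19, and ABCB19, an auxin exporter, fell by 1.69 ± 0.18 from 91.0, 68.7 and 112 CPM.

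Indole and aliphatic glucosinolates are defence compounds of the cabbage family made by parallel routes. Of 17 genes of the indole route and tryptophan synthesis 10 were higher and 2 lower, and CYP79B2, its first committed enzyme, went from 12.8, 7.76 and 8.78 CPM to 73.2, 80.2 and 127 CPM. Of 16 aliphatic genes 1 was higher and 4 were lower (25%, near the 22.7% of all tested genes). Under library size alone the aliphatic count turned to 4 higher and 1 lower, and the indole count was 10 and 0. MYB29, a regulator of that route, fell from 34.5, 46.0 and 32.8 CPM to 8.59, 20.3 and 13.2 CPM. IMD1 and CYP83A1 lost their calls under library size alone and in both limma fits (adjusted p 0.221 and 0.216 for IMD1, 0.625 and 0.624 for CYP83A1). Both also lost them without DMSO replicate 2 (-0.76 and -0.45) or latrunculin B replicate 1 or 2, and CYP83A1 without DMSO replicate 3 as well. Of 18 phenylpropanoid, coumarin and flavonoid genes 6 were higher and 2 lower, with C4H at 0.98 ± 0.20 and 4CL2 at 1.29 ± 0.28 beside AT3G13610.

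Mitochondria have side routes of respiration that bypass the proton-pumping complexes and are induced when the organelle fails. Of 12 genes of these routes and of mitochondrial stress 9 were higher. NDA2, an alternative NADH dehydrogenase, went from 20.8, 18 and 20.5 CPM to 61.2, 74.6 and 78.0 CPM. NDB2, its outward-facing counterpart, rose by 2.94 ± 0.29. NDA1 fell from 249, 246 and 233 CPM to 142, 150 and 109 CPM, and NDB1 fell by 0.62 ± 0.18. NDA1 also fell in sid2, by 0.64 (adjusted p = 0.014). The palindrome CTTG and CAAG with 5 letters between, found in promoters of mitochondrial stress genes, was in 0.46% of all promoters and in 2 of these 12 (16.7%), those of NDB2, which rose, and of NDA1, which fell.

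Genes encoded in the mitochondrial genome were mostly higher where tested: 31 of 40, with none lower and a median of 1.79. The other 61 of 101 had too few reads to be tested. A gene could pass the low-count filter through the latrunculin B libraries alone, which favours rises among those tested. With no such filter 32 were higher and none lower, with a median of 1.79. Together all genes of that genome took 0.00629% to 0.00818% of reads with DMSO and 0.0276% to 0.0330% with latrunculin B, so the shares are small in both. ATMG01090 was at 7.30, 7.71 and 10.3 CPM with DMSO and 30.1, 37.0 and 35.2 CPM with latrunculin B. Responses of 20 of the 40 exceeded those in sid2, where the share was 0.00693% to 0.0113% over both treatments. Copies of these genes in the nuclear genome share their reads, so the split between copies is uncertain. Genes of the chloroplast genome were mostly not called: 10 of 71 were lower and 1 was higher, but 6 were higher and 4 lower under library size alone.

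Among protein turnover genes, calls were nearly all upward. Of 27 subunits of the 26S proteasome 16 were higher and none was lower, with a median of 0.56. The changes were modest and even, such as PBD2, from 21, 21.7 and 20.3 CPM to 44.2, 51.9 and 61.1 CPM, and RPT5B, from 12.5, 14.6 and 15.3 CPM to 25.9, 26.5 and 26.3 CPM. Of 23 autophagy genes 9 were higher and 1 lower. NBR1, a receptor that delivers protein aggregates to the vacuole, went from 135, 131 and 141 CPM to 443, 402 and 504 CPM. Among the ATG8 ubiquitin-like proteins that coat autophagic membranes, APG8A rose by 1.40 ± 0.19 and ATG8B by 1.45 ± 0.26, and ATG8F fell by 0.56 ± 0.13, a call lost under library size alone. Of 17 cytosolic heat shock genes 6 were higher and none lower, with HSF4 at 2.90 ± 0.29 and HSP90.1 at 1.75 ± 0.26. Of 57 cytosolic ribosomal proteins 14 were lower (24.6%, near the 22.7% of all tested genes) and 2 higher, a count that turned to 1 lower and 9 higher under library size alone.

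Chlorophyll synthesis fell at nearly every step. Of 22 tested genes 19 were lower and none was higher, with a median of -1.06, and 17 were lower under library size alone. CHLM, a methyltransferase of the magnesium branch, went from 430, 401 and 388 CPM to 157, 129 and 121 CPM. CRD1, of the next step, went from 3321, 3003 and 2985 CPM to 1527, 1410 and 1013 CPM. Genes of chlorophyll breakdown and senescence rose in 13 of 18 cases and fell in 3 (14 and 0 under library size alone). SAG101, an immune and senescence-associated lipase-like protein, went from 19.9, 24.8 and 26.4 CPM to 84.2, 87.8 and 103 CPM. Of 10 plastid ribosomal and translation proteins 7 were lower and 2 higher: PSRP4 fell by 1.60 ± 0.14 and PRPS20 by 1.47 ± 0.18. WT responses of 17 chlorophyll synthesis genes were lower than those in sid2.

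Wall growth genes were mostly lower. Of 23 genes of cellulose and other wall polymers 17 were lower and 1, PARVUS, was higher, with a median of -0.94. POM1, needed for normal cellulose deposition, went from 388, 368 and 351 CPM to 123, 149 and 119 CPM. CEV1, a synthase subunit of the primary wall, fell by 1.48 ± 0.14. Expansins and xyloglucan enzymes, which loosen the wall, were lower in 24 of 40 cases with a median of -1.66, and XTH10 and XTH29 were higher. XTH7 went from 72.7, 98.9 and 73.6 CPM to 19, 16.2 and 11.8 CPM. Callose synthases and plasmodesmal proteins were divided, 7 higher and 8 lower of 20. GSL05, the synthase of wound and defence callose, rose by 1.32 ± 0.18 and CALS1 by 1.49 ± 0.17, and GSL12 fell by 0.75 ± 0.12.

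Transport and primary metabolism were mixed, to be read beside the 22.1% of all tested genes that were higher and the 22.7% lower. Of 22 aquaporins 8 were lower and 3 higher, and PIP1C went from 427, 373 and 318 CPM to 62.7, 72.7 and 81.1 CPM. TIP2, a vacuolar aquaporin, went from 1359, 1445 and 1196 CPM to 363, 445 and 313 CPM. Of 25 sugar genes 11 were lower (44%) and 6 higher (24%, near the share of all tested genes), or 7 and 9 under library size alone. MSS1, a hexose importer also called STP13, went from 29.3, 38.0 and 59.1 CPM to 238, 305 and 286 CPM, while SWEET17, a vacuolar fructose carrier, fell by 2.05 ± 0.25. Of 19 nitrogen genes 7 were lower (36.8%) and 4 higher (21.1%, near the share of all tested genes), or 4 and 5 under library size alone. The plastid glutamine synthetase GS2 was at -0.90 ± 0.17 and GDH2 at 1.81 ± 0.24. The clock list of 20 had 8 higher (40%) and 4 lower (20%, near the share of all tested genes), or 5 and 5 with upper-quartile scaling. LHY (0.93 ± 0.18) and TOC1 (1.01 ± 0.15) were among its higher members. Of 26 genes of oxidative burst and peroxide removal 10 were higher (38.5%) and 7 lower (26.9%, near the share of all tested genes). The wall peroxidase PRXCB rose from 148, 208 and 175 CPM to 683, 934 and 1051 CPM, and the thylakoid protein TL29 fell by 1.48 ± 0.17. In cell division genes 24 of 28 were not called.

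**Figure D4:**
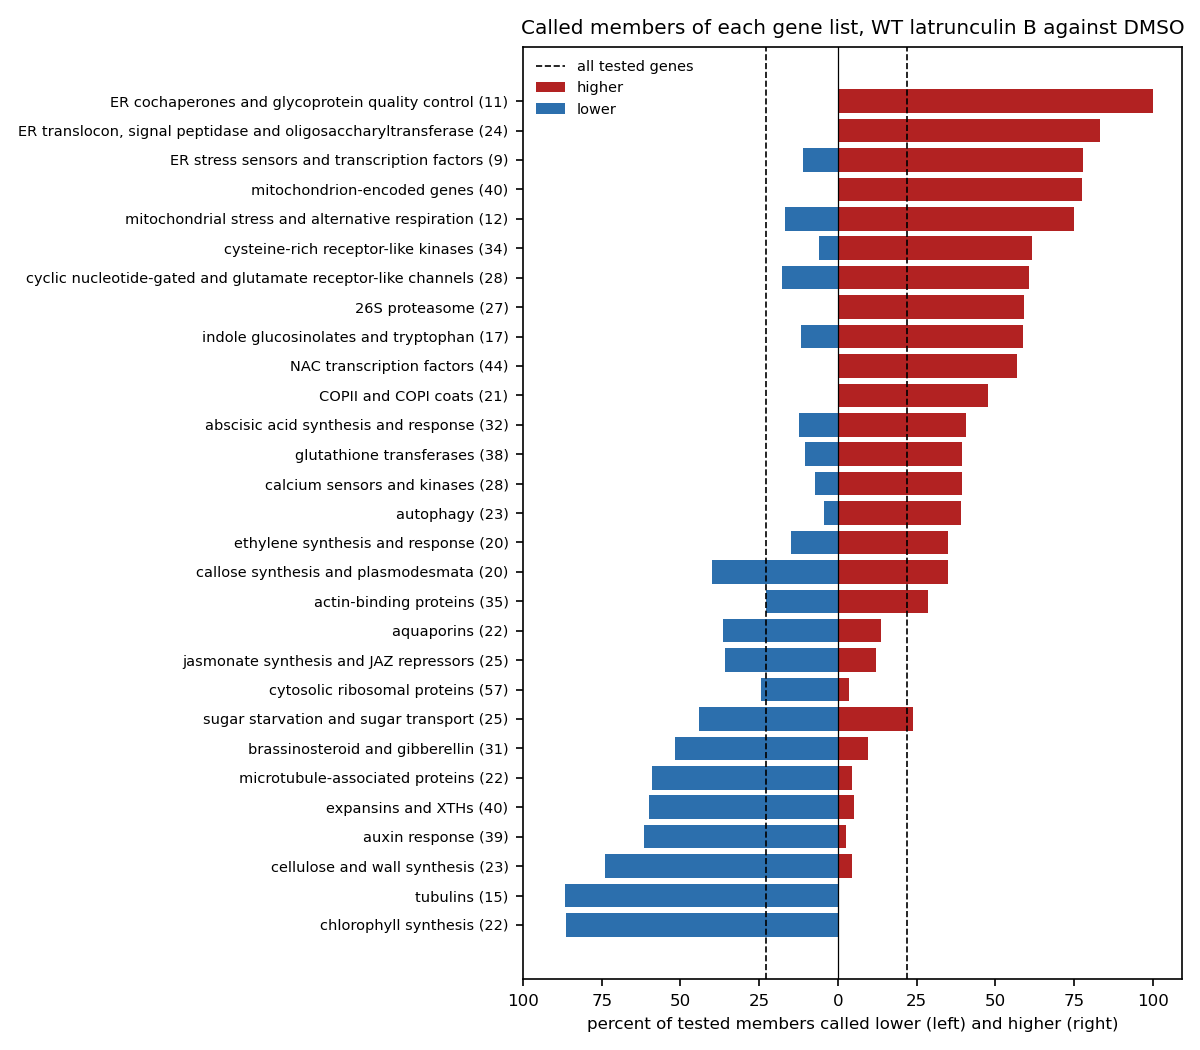
For 29 gene lists, the bars give the percent of tested members called lower (left, blue) and higher (right, red) with latrunculin B in WT, with the number tested in brackets. Dashed lines mark the shares over all tested genes, 22.7% lower and 22.1% higher. Lists of the ER, mitochondria, CRKs and proteasome lie at the top, and chlorophyll synthesis, tubulins and wall synthesis at the bottom.

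Markers of leaf cell types were checked against the tissue label. Mesophyll markers took 76264 to 96259 CPM with DMSO and 28136 to 40606 CPM with latrunculin B in sum, and all 5 fell. Of 6 root markers 5 had no reads in WT, and the other, SCR, was at 18.1 to 21.1 CPM and 23.7 to 28.2 CPM, a call of 0.39 that was lost with upper-quartile scaling (adjusted p = 0.0968), with no filter on low counts (0.0522), and without DMSO replicate 2 or 3, latrunculin B replicate 1 or 2 or sid2 latrunculin B replicate 1. Guard cell markers summed to 601 to 842 CPM and 538 to 595 CPM, with 4 of 7 lower (1 under library size alone). KAT1, the inward potassium channel of guard cells, stood against these with 19.1, 18.7 and 16.7 CPM and then 81.5, 72.2 and 92.7 CPM, a rise of 2.18 ± 0.25, and differed from sid2 by 2.97 (adjusted p = 0.00014). Epidermis and trichome markers fell in 3 of 4 cases, xylem markers in 1 of 7 (14.3%) and phloem markers in 1 of 8 (12.5%). The xylem and phloem shares were below the 22.7% of all tested genes that fell. Under library size alone the counts for epidermis and trichome, xylem and phloem were 1, 0 and 0, with 4 phloem markers higher. Phloem sums overlapped, at 437 to 617 CPM and 490 to 567 CPM. The part of cell composition in any of these results was not tested.

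Set against sid2, the WT response was larger for many genes. In sid2 latrunculin B raised 640 genes (3.53%) and lowered 219 (1.21%). By the test of the difference, 1718 of the 4012 genes that rose in WT and 2233 of the 4115 that fell had a larger change in WT, and 4 and 1 had a smaller one. These genes were picked by their WT calls, which favours larger changes in WT, so the uneven split was partly set by the choice. In sid2, 457 of the genes that rose in WT were called higher too, and 85 of those that fell were called lower. A further 30 genes higher in WT were lower in sid2, and 29 lower in WT were higher in sid2. Each had a passing difference, which opposite calls in the same fit make nearly certain, so it adds no support.

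Among those 59 the following were chosen after their values were seen. ADC2, an arginine decarboxylase of polyamine synthesis, went from 84.4, 75.2 and 77.1 CPM to 283, 245 and 296 CPM in WT. In sid2 it went from 170, 158 and 129 CPM to 83.4, 116 and 80.3 CPM. The responses were 1.8 ± 0.16 and -0.70 (adjusted p in sid2 0.023), and they differed by 2.5 (adjusted p = 4.1e-05). SWEET12, which exports sucrose for phloem loading, went from 4.12, 2.07 and 2.91 CPM to 12.9, 11.9 and 19.1 CPM in WT and from 5.58, 4.47 and 3.85 CPM to 0.686, 1.95 and 1.8 CPM in sid2. GDH2, a glutamate dehydrogenase of carbon shortage, changed by 1.81 and -0.97, a difference of 2.78 (adjusted p = 0.0002). In the other direction the aquaporin PIP1;5 went from 83.3, 70.1 and 109 CPM to 21, 21.8 and 20.7 CPM in WT and from 49.1, 80.5 and 69.9 CPM to 101, 98.3 and 147 CPM in sid2. GSL12, the callose synthase of phloem and plasmodesmata, changed by -0.75 in WT and 0.54 in sid2. For all 5 the difference passed in every alternative run, which their choice by opposite calls makes likely. The sid2 calls were less steady: each of the 5 missed the threshold in at least 1 alternative, with the highest adjusted p in sid2 each time when 1 sid2 library was left out. It was 0.101 for ADC2 and 0.0948 for GSL12 without latrunculin B replicate 1, 0.181 for PIP1;5 without latrunculin B replicate 3, 0.150 for GDH2 without DMSO replicate 2 and 0.0742 for SWEET12 without DMSO replicate 1.

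**Figure D5:**
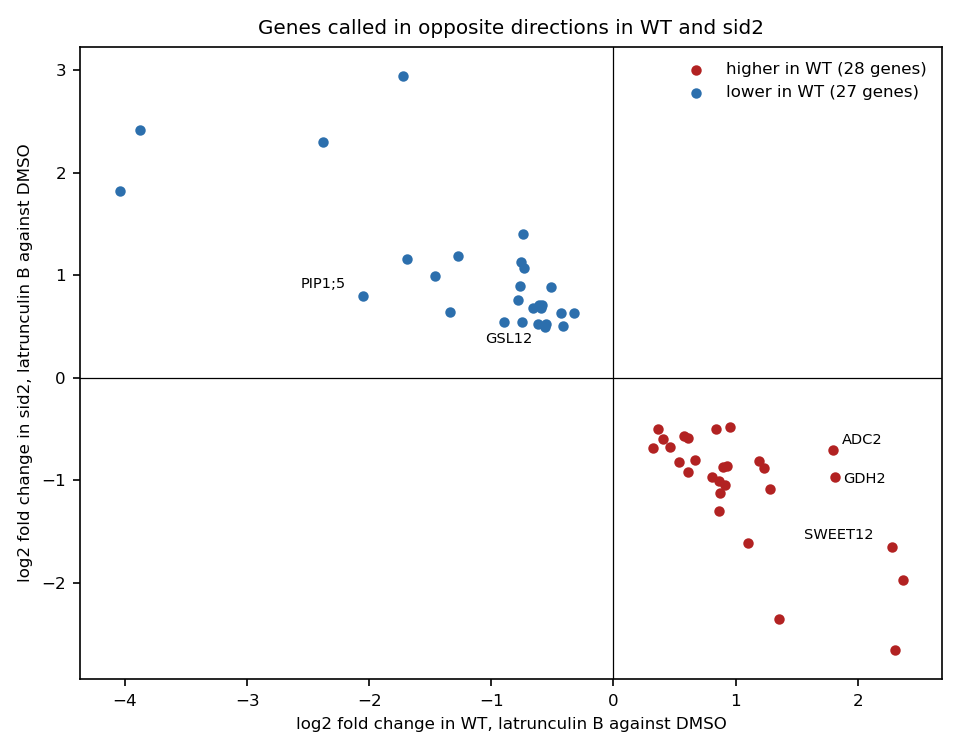
Each point is a gene called in opposite directions in the 2 genotypes, among those with over 3 reads in each of the 4 groups, with the log2 fold change in WT on the horizontal axis and in sid2 on the vertical axis. Red points are the 28 genes higher in WT and blue points the 27 lower in WT. ADC2, GDH2 and SWEET12 lie at the lower right, PIP1;5 and GSL12 at the upper left.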

How the data were processed

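RNA was measured by sequencing in rosette leaves of 2 Arabidopsis genotypes under 2 treatments, 3 libraries per group, grouped by the titles. For the authors' own processing, the submitters' processing notes name Trimmomatic, Salmon (version 1.3.0) and the build TAIR10. Libraries came from a directional kit, per the labels' protocols, and the strand setting of the quantification is not given in the sources used here. Each deposited table lists 32875 transcripts with their estimated count and their TPM value, as its header names them. Of the deposited lengths 99.99% were multiples of 3, so the models are coding sequence.

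Estimated counts were summed to 27313 loci and rounded, and filterByExpr left 18149. Libraries were scaled by TMM. edgeR 4.0.16 (R 4.3.3) fitted 1 quasi-likelihood model to all 12 libraries with a mean per group, with Benjamini-Hochberg adjustment over all tested genes and a threshold of 0.05. A log2 fold change is latrunculin B minus DMSO, and ± is its SE. The same model tested the difference of the WT and sid2 responses. The script was tested on simulated counts. The common biological coefficient of variation was 0.211. Where a group had no reads, a floor of 3 reads in its libraries together stood in for it, and the fold is given as at least that size (counting error only).

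The 52 gene lists held 1520 different genes. Members and lists were chosen with earlier results of these data known, so they carry counts and medians and no test of their own. Named genes are the 12 largest changes in each direction (called, no overlap, at least 10 CPM in the higher group), the 8 largest in CPM, up to 4 members of each list with the smallest adjusted p, and all tested actins. Other names identify counts of 5 or fewer or were chosen after their values were seen: GLIP1, BON3, AHP4, XTH33, ADC2, SWEET12, PIP1;5, GSL12, BIP3, CRK11, NDA1, ATG8F and BAG7. Gene names, coordinates and promoters are from RefSeq's TAIR10.1, matched by locus (26645 of 27313). The alternatives were RLE, upper-quartile and library-size scaling, no low-count filter, robust hyperparameters, effective-length offsets, no organelle genes, DESeq2 1.42.0, limma 3.58.1 on log2(TPM + 1) and log2(TPM + 0.1), a fit of the 6 WT libraries, a minimum change of 1 on the log2 scale, and leaving out each library.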

Additional observations from a re-analysis of the deposited data

Results flagged for a closer look

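The WT response to latrunculin B differed from that in sid2, by the test of the difference at an adjusted p under 0.05 (edgeR), for many genes: 1948 of 18149 (10.7%) had a greater log2 fold change in WT and 2436 (13.4%) a smaller one. Differences below are WT minus sid2 on the log2 scale, for named genes that passed this test and had over 3 reads in every group. Most of these genes were picked by their WT response, which favours larger differences.

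Among the largest rises the difference was 9.06 for XTH10, 4.74 for ABCG40, 3.85 for AT5G19880, 3.58 for AT1G26410 and 2.49 for YLS9. XTH10 was barely detected in sid2, where control leaves averaged 0.214 CPM and treated leaves 0.069. Its sid2 change of -1.49 was not called (adjusted p = 0.52, edgeR). The 9.06 exceeds the WT rise of 7.57 only through that uncalled drop, so its size is uncertain. Rises of abundant genes differed by 2.86 for PCR1, 1.78 for BIP1, 1.72 for BIP2, 1.04 for AT1G35710 and 0.99 for AT2G25510, and the reads of BIP1 and BIP2 are hard to tell apart. For the largest falls it was -4.97 for AT5G15780, -4.75 for AT4G16563, -4.67 for BZIP34, -4.65 for BZIP61, -4.47 for XTH6, -4.43 for SAUR29, -4.12 for XTH4, -4.07 for DRT100, -3.74 for AT5G02760 and -3.65 for AT5G48490. Besides BZIP61 and BZIP34, the WT changes of 3 of these moved by over 1.5 times with 1 library: AT5G15780 from -4.34 to -3.33 and AT5G48490 from -4.62 to -3.57 without WT DMSO replicate 1, and AT4G16563 from -4.47 to -5.19 without latrunculin B replicate 3. Photosynthesis genes differed less, by -1.41 for RBCS3B, -1.14 for RBCS1A, -1.0 for CAB2, -0.93 for LHCB5, -0.78 for CAB1 and -0.75 for RCA. In the actin system it was -4.13 for ACT11, -2.38 for AFH1, -0.82 for CPA, -0.80 for ACT2, 0.98 for ADF6 and 0.95 for ADF4. The genes named after their values were seen gave 4.03 for BIP3, 3.93 for SWEET12, 2.5 for ADC2, -1.29 for GSL12 and -2.85 for PIP1;5.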

How the results depend on the processing

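No paired analysis was possible because the labels give no replicate number, plant or batch that groups share. Leaving out each library in turn gave 3338 to 4248 genes higher and 3476 to 4277 lower, 1451 to 2051 with a greater and 1943 to 2580 with a smaller response in WT than in sid2, and 606 to 692 called list entries. Library size alone gave 6818 higher and 2521 lower (73.0% of calls higher against 49.4%) and 2975 greater responses. Limma gave 6804 higher, 2422 lower, 3194 greater and 1620 smaller on log2(TPM + 0.1), and 6942, 2395 and 3583 greater on log2(TPM + 1). The deposited TPM values carry no TMM factor, and the cause of the other changes was not tested. Upper-quartile scaling gave 3509 and 4622, 43.2% of calls higher. Asking for a change of at least 1 on the log2 scale left 1954, 2148 and 421 list entries.

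Of 248 named genes followed through 23 settings other than that minimum, 238 were called. None of these changed direction, and 23 lost the call in at least 1. Sign changed in ACT8, ACT7 and SEOR1, none of them called: ACT8 was at 0.007 under library size alone and at 0.004 in both limma fits, ACT7 at 0.270, 0.281 on log2(TPM + 0.1) and 0.280, and SEOR1 at 0.079 and 0.056 in the limma fits. Left-out libraries put ACT7 between -0.167 and 0.031. Medians that changed sign under library size alone were those of cytosolic ribosomal proteins (0.22), chloroplast-encoded genes (0.23) and myosins (0.15). Upper-quartile scaling made those of ABC transporters (-0.06), the clock (-0.04), jasmonate response (-0.04), aliphatic glucosinolates (-0.05), phloem markers (-0.01) and actin-binding proteins slightly negative. Genes of few reads are limited by depth: fitted changes of WRKY75, FMO1 and BZIP61 moved by over 1.5 times with 1 library.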

Other observations

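The called genes were spread evenly over coding length: by quintile, 21.4% to 22.7% were higher and 20.5% to 24.6% lower with latrunculin B in WT. Median differences from the DMSO mean over the genes called higher were 0.86, 0.93 and 0.99 on the log2 scale in latrunculin B replicates 1, 2 and 3, and -0.90, -0.92 and -1.12 over those called lower. Of the 15 tested genes with 0 reads in every latrunculin B library, 3 had at least 10 reads in each DMSO library. These too passed the low-count filter only through other groups.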
